A study of Danio rerio with 6 samples.

Results

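The genes described here build the machinery that copies DNA in S phase and the machinery that separates the chromosomes in mitosis, and they were compared between old and young zebrafish ventricles. The list held 57 gene symbols, 16 of them for S phase and 41 for mitosis. A symbol was kept when it led to a single Ensembl gene in the deposited count table, which gave 54 members (14 S phase and 40 mitosis genes) of the 32520 genes counted, and all 54 had at least 1 read and were tested. The symbols *mcm6* and *rrm2* each led to 2 genes and *incenp* to none, so these 3 were left out. For 5 members (*birc5a*, *kif4*, *mybl2b*, *prc1a* and *prc1b*) the gene was found only through another symbol. For *prc1a* and *prc1b* this other symbol led to 2 genes. As an exception to the rule they were kept, and were told apart by the gene identifiers that the study lists.

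The ventricle, the pumping chamber of the heart, was taken from 3 old (4 years) and 3 young (7 months) individuals of wild-type zebrafish, bred by mating AB with TU fish. No treatment, injury or transgene is given for either group, and the sex of the fish is not stated. Polyadenylated RNA was sequenced from each sample, and the comparison asks which transcripts differ with age. The old replicates carry the numbers 1, 3 and 5 and the young replicates 1, 2 and 5, and values are given below in that order.

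A cell that divides first loads the Mcm helicase onto its replication origins, then fires the origins and copies its DNA, and later condenses and pulls apart the chromosomes under the control of Cdk1 and its cyclins. Transcription follows the same order, because E2F factors drive the replication genes at the entry to S phase, and B-Myb and FoxM1 drive the mitotic genes later, before division. In the adult zebrafish heart few cells divide at rest, but its cardiomyocytes can return to the cell cycle after injury.

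The libraries held between 17742389 and 22547518 counted reads, and across 14783 well-counted genes Pearson's r of a pair of libraries ranged from 0.911 to 0.969. Levels are given as reads and as CPM (reads scaled to a common library size with a TMM factor). A count of 0 allows up to 3 reads, a floor of 0.124 to 0.161 CPM in a library, and floors cover counting error only. Where all 3 libraries of a group held at most 3 reads, the fold is a nominal bound, the mean of the other group over the mean floor of that group. It takes the mean of the other group as exact and small counts as no higher than the floor. The true fold can therefore be smaller. The members were scarce transcripts, with a median of 152.5 reads summed over the 6 libraries for the S phase genes and 79.5 for the mitosis genes, against 179 for all genes tested. Cardiomyocyte markers were abundant in every library, with sums over 5 genes of 30300 to 42000 CPM.

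Of the 40 mitosis genes, 38 were fitted higher in old fish, and the median of their log2 fold changes was 1.94 (1.87 with bounds for the 7 genes at the floor in young ventricles). Of the 14 S phase genes, 11 were fitted higher in old fish, with a median of 0.71, and all 24835 genes tested had a median of 0.02. With the quasi-likelihood test of edgeR, and p-values adjusted after Benjamini and Hochberg over all genes, 3 members passed an adjusted p of 0.05, namely *top2a*, *mki67* and *smc2*, all 3 mitosis genes that were up-regulated in old ventricles. Of all genes tested, 0.519% passed in this direction and 0.338% in the other.

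Most mitosis genes did not pass the adjusted threshold but shared the direction. An unadjusted p under 0.05 was reached by 30 of the 40 mitosis genes (75.0%) and 3 of the 14 S phase genes (21.4%), all higher in old ventricles. Among all genes tested, 8.64% reached it with a higher and 6.5% with a lower level in old ventricles. Every old library lay above every young library for 32 mitosis genes (80.0%) and 3 S phase genes (21.4%), against 10.4% of all genes, and no member had every old library below every young one, against 9.66% of all genes. DESeq2's Wald test, run on the same counts as an alternative, called 14 mitosis and 2 S phase genes, all higher in old ventricles, while it called 2.99% of all genes in this direction. The members were measured in the same 6 libraries and are not independent of each other, and the difference between the S phase and mitosis lists was not tested.

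**Figure D1:**
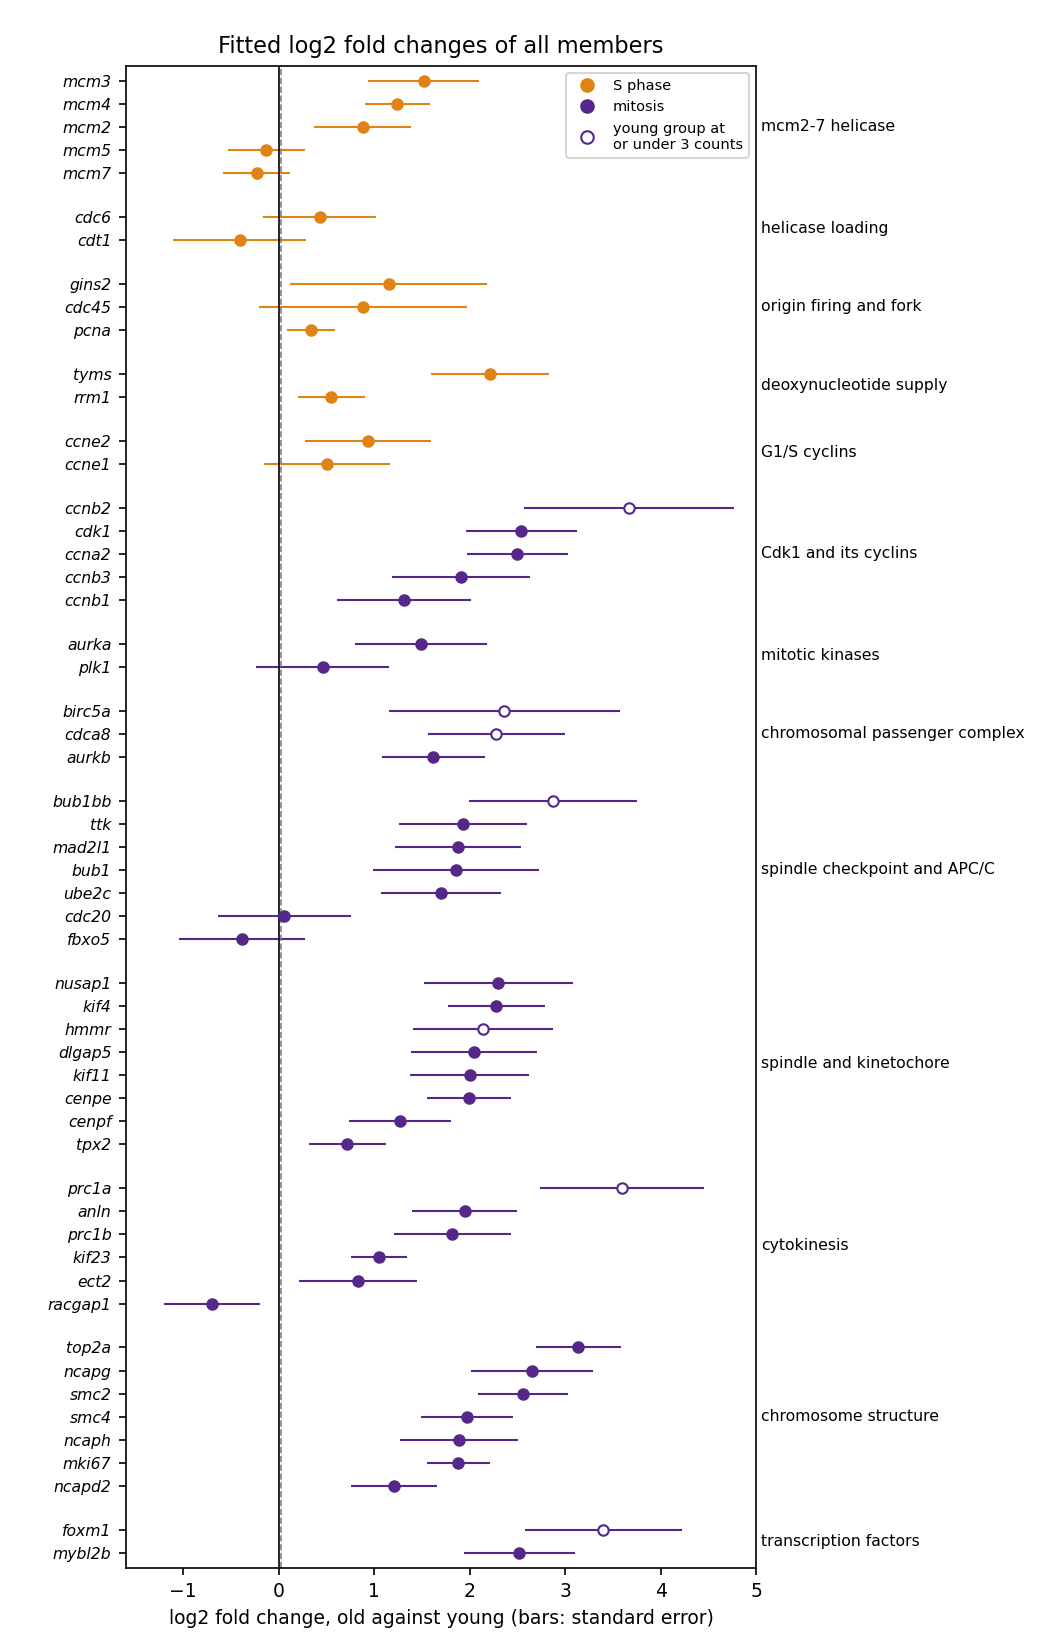
Fitted log2 fold changes (old against young ventricles, horizontal axis) with their standard errors for the 54 members, grouped by role; open circles mark the 7 genes with at most 3 reads in every young library, whose fitted values depend on the model and are no bound, the solid line marks 0 and the dashed line the median of all genes (0.02). The mitosis genes lie to the right of 0 with the exception of *fbxo5* and *racgap1*, and the S phase genes spread from -0.41 to 2.21.

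Chromosome structure genes held all 3 calls. *top2a* (ENSDARG00000024488) encodes topoisomerase II alpha, which untangles sister chromatids. It had 86, 83 and 56 reads in the old libraries and 5, 11 and 8 in the young ones, or 3.55 ± 1.11 against 0.397 ± 0.141 CPM (mean ± SD, n = 3 each). The lowest old library held 2.31 CPM and the highest young library 0.531, and the log2 fold change was 3.14 ± 0.45 (SE, adjusted p = 0.02, edgeR).

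*mki67* (ENSDARG00000091150), whose product Ki-67 coats mitotic chromosomes and is the usual stain for cycling cells, had 78, 71 and 89 reads in old and 24, 19 and 17 in young ventricles. The old libraries lay close together at 3.67 ± 0.133 CPM, and the young ones at 0.996 ± 0.18 (SD, n = 3 each). The log2 fold change was 1.88 ± 0.33 (SE, adjusted p = 0.042, edgeR).

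*smc2* (ENSDARG00000017744) encodes an ATPase core subunit of condensin, the complex that compacts chromosomes for division. Its reads were 49, 45 and 32 in old and 8, 7 and 5 in young ventricles, which is 1.98 ± 0.581 against 0.331 ± 0.0729 CPM (SD, n = 3 each). The groups were apart in every library, with a log2 fold change of 2.56 ± 0.47 (SE, adjusted p = 0.048, edgeR). These 3 calls rest on the young libraries: without any 1 of young replicates 1, 2 or 5 no member passed, when the calls among all genes also fell from 213 to 57, 19 and 96, while the log2 fold change of *top2a* stayed between 2.90 and 3.41 over all 6 omissions. Without old replicate 3, *top2a* alone of the members passed, *mki67* missed the threshold without old replicate 5, and *smc2* missed it without old replicate 1.

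The remaining condensin subunits were higher in every old library than in any young one. *smc4*, the partner ATPase of Smc2, had 47, 47 and 26 reads in old and 10, 8 and 11 in young ventricles (log2 fold change 1.97 ± 0.48, SE). *ncapg*, *ncaph* and *ncapd2* encode the regulatory subunits of condensin I, and their log2 fold changes were 2.65 ± 0.64, 1.89 ± 0.62 and 1.21 ± 0.45 (SE). None of these 4 passed the adjusted threshold (adjusted p between 0.097 and 0.24, edgeR), but all 7 chromosome structure genes had an unadjusted p under 0.05. Of all genes, 8.64% did with a higher level in old ventricles, and 10.4% had every old library above every young one.

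Condensin II has its own regulatory subunits, which were not members and belong to a wider list of mitosis genes. Of these, *ncapg2* was up-regulated in old ventricles, with 27, 31 and 16 reads against 1, 2 and 1 in young ventricles. The young group lay at the floor, and *ncapg2* was higher in old fish with a nominal bound of 7.91-fold (adjusted p = 0.036, edgeR). *ncapd3* had a log2 fold change of 1.87 and *ncaph2* of 1.18, with adjusted p of 0.14 and 0.36 (edgeR) and no overlap between the groups.

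Cdk1 is the kinase that starts mitosis, and it needs a cyclin of type A or B. *cdk1* (ENSDARG00000087554) had 46, 34 and 26 reads in old ventricles and 7, 8 and 2 in young ones, with a log2 fold change of 2.54 ± 0.58 (SE, adjusted p = 0.084, edgeR). *ccna2*, the A-type cyclin of S phase and early mitosis, had 28, 23 and 23 reads against 3, 6 and 3 (log2 fold change 2.5 ± 0.53, SE, adjusted p = 0.072, edgeR). In both genes the old and young libraries were apart, though neither passed the adjusted threshold.

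The B-type cyclins, which bring Cdk1 into mitosis, were less uniform. *ccnb1* had 19, 13 and 25 reads in old and 4, 15 and 2 in young ventricles, so young replicate 2 lay within the range of the old libraries (log2 fold change 1.31 ± 0.70, SE, adjusted p = 0.42, edgeR). *ccnb2* had 8, 6 and 4 reads in old ventricles and 0, 1 and 0 in young ones, higher in old ventricles with a nominal bound of 1.89-fold. *ccnb3* had 7, 10 and 17 against 3, 1 and 4 reads, again without overlap.

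FoxM1 and B-Myb are the transcription factors that switch on mitotic genes late in the cycle. *foxm1* (ENSDARG00000003200) had 14, 20 and 14 reads in old ventricles and 2, 2 and 0 in young ones. The level was higher in old ventricles with a nominal bound of 5.09-fold (adjusted p = 0.096, edgeR). *mybl2b*, the zebrafish gene for B-Myb, had 26, 19 and 18 reads against 2, 5 and 3 (log2 fold change 2.52 ± 0.58, SE, adjusted p = 0.086, edgeR). Every old library was above every young library for both.

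**Figure D2:**
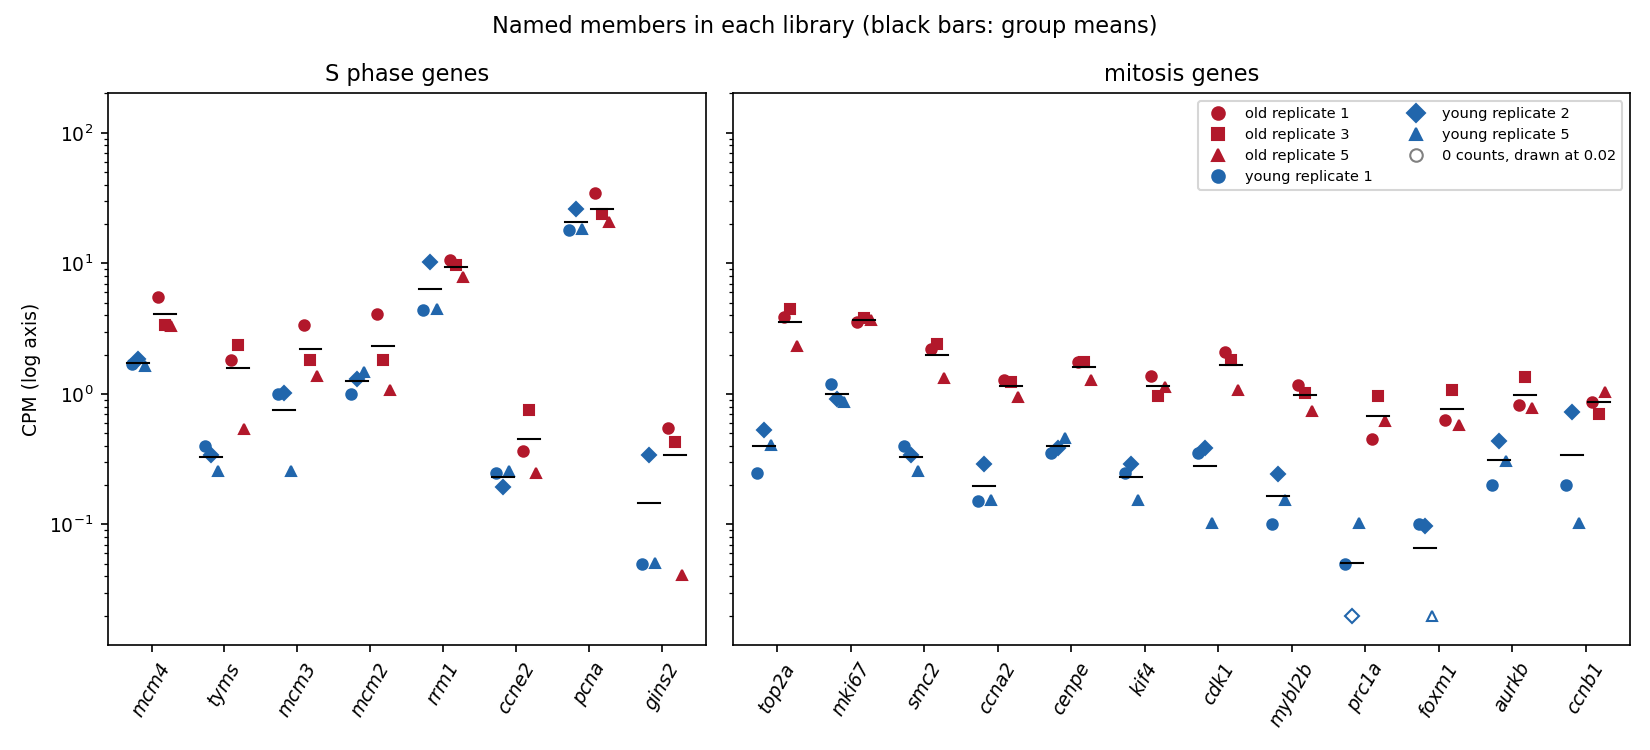
CPM on a log axis of 8 S phase genes (left) and 12 mitosis genes (right) in each of the 3 old (red) and 3 young (blue) libraries, with black bars for group means and open symbols for 0 reads. Drawn are the 8 S phase and 10 mitosis members with the smallest p for this age comparison, and also *aurkb* and *ccnb1*. This choice favours genes with separated groups. Red and blue points are apart for 11 of the 12 mitosis genes, the exception being *ccnb1*. They are apart for 3 of the 8 S phase genes (*mcm4*, *tyms* and *mcm3*). In the full lists, the old group was higher without overlap for 32 of 40 mitosis and 3 of 14 S phase genes. The share among all genes tested was 10.4%.

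Motors and kinetochore proteins attach chromosomes to the spindle and move them. *cenpe*, a kinetochore motor that carries chromosomes to the spindle equator, had 39, 33 and 31 reads in old and 7, 8 and 9 in young ventricles (log2 fold change 1.99 ± 0.44, SE, adjusted p = 0.077, edgeR). *kif4*, a chromosome-bound kinesin, had 30, 18 and 27 against 5, 6 and 3 reads (log2 fold change 2.28 ± 0.51, SE, adjusted p = 0.083, edgeR). Of the 8 spindle and kinetochore genes, 7 had an unadjusted p under 0.05 and 7 did not overlap between the ages. Of all genes, 8.64% reached this p with a higher level in old ventricles, and 10.4% had every old library above every young one.

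The other members of that role were the spindle motor gene *kif11*, the microtubule binders *nusap1*, *hmmr* and *dlgap5*, the kinetochore gene *cenpf* and *tpx2*, which activates Aurora A. *nusap1* had 36, 35 and 19 reads in old ventricles and 1, 3 and 13 in young ones, so most of its young reads came from replicate 5. *tpx2* had the smallest difference of the role, with 39, 57 and 39 against 23, 26 and 29 reads and a log2 fold change of 0.72 ± 0.40 (SE). *cenpf* was the only gene of the role in which the groups overlapped. *kif11* and *dlgap5* had log2 fold changes of 2.00 ± 0.62 and 2.05 ± 0.66 (SE). *hmmr*, with 6, 9 and 15 against 3, 2 and 1 reads, was higher in old fish with a nominal bound of 3.06-fold.

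Cytokinesis genes, which split the cell after the chromosomes have parted, included the lowest fitted value among the mitosis members. *prc1a* encodes a bundler of midzone microtubules and had 10, 18 and 15 reads in old and 1, 0 and 2 in young ventricles. It was higher in old ventricles with a nominal bound of 4.54-fold (adjusted p = 0.096, edgeR). Its paralog *prc1b* had 23, 24 and 22 against 10, 2 and 6 reads. Reads that mapped to several places had been discarded by the authors, so the counts of these paralogs are uncertain where their sequences are alike.

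Centralspindlin, the complex that positions the cleavage furrow, joins the products of *kif23* and *racgap1*, of which only *kif23* was apart between the ages. *kif23* had 338, 213 and 251 reads in old and 165, 108 and 86 in young ventricles, or 12.4 ± 2.61 against 5.96 ± 2.04 CPM (SD, n = 3 each), with no overlap. *racgap1* had 44, 53 and 34 reads in old and 54, 121 and 30 in young ventricles, where young replicate 2 was far above the rest (log2 fold change -0.70 ± 0.50, SE, adjusted p = 0.56, edgeR, and -0.03 without that library). *anln*, which encodes the furrow scaffold anillin, had 108, 88 and 42 reads against 21, 30 and 8, and *ect2*, the exchange factor that activates RhoA at the furrow, had 9, 18 and 17 against 7, 4 and 12.

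Aurora B, survivin and borealin belong to the chromosomal passenger complex, which corrects faulty attachments of chromosomes. *aurkb* had 18, 25 and 19 reads in old and 4, 9 and 6 in young ventricles (log2 fold change 1.62 ± 0.54, SE, adjusted p = 0.20, edgeR), without overlap. *cdca8*, the borealin gene, had 8, 11 and 8 against 1, 2 and 2 reads, higher in old ventricles with a nominal bound of 2.86-fold. *birc5a*, a survivin gene, was barely counted in either group, with 3, 8 and 1 against 1, 0 and 1 reads.

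The kinases *aurka* and *plk1*, which mature the centrosomes, had log2 fold changes of 1.49 ± 0.69 and 0.46 ± 0.70 (SE). *plk1* had 31, 15 and 17 reads in old ventricles and 7, 5 and 30 in young ones, and after scaling young replicate 5 (1.53 CPM) lay above every old library (at most 1.40).

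The spindle checkpoint delays anaphase until every chromosome is attached, by holding back the anaphase-promoting complex (APC/C). Its genes *ttk*, *mad2l1*, *bub1* and *bub1bb* had every old library above every young one (10.4% of all genes). For *bub1bb* the reads were 10, 7 and 9 against 1, 2 and 0 (higher in old ventricles, nominal bound 2.68-fold). Log2 fold changes of the other 3 ranged from 1.86 for *bub1* to 1.93 for *ttk*.

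The genes on the APC/C side of this switch were not uniform. *ube2c*, its ubiquitin-conjugating enzyme, had 26, 16 and 14 reads against 5, 9 and 2, without overlap. *cdc20*, the activator that the checkpoint holds back, had 6, 5 and 7 reads in old and 9, 5 and 2 in young ventricles, with a log2 fold change of 0.06 ± 0.70 (SE). *fbxo5*, which encodes the inhibitor Emi1, had 8, 9 and 8 against 16, 12 and 3 reads (log2 fold change -0.39 ± 0.66, SE). The ranges of the old and young libraries overlapped for both of these genes.

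Among the S phase genes no member passed the adjusted threshold by edgeR. The 3 with an unadjusted p under 0.05 were *mcm4*, *tyms* and *mcm3*, and DESeq2 called *mcm4* and *tyms*. The Mcm helicase is a ring of related subunits that unwinds DNA at the fork, and its genes were not uniform. *mcm4* had 123, 63 and 80 reads in old and 34, 38 and 32 in young ventricles, or 4.08 ± 1.29 against 1.72 ± 0.103 CPM (SD, n = 3 each), with a log2 fold change of 1.24 ± 0.34 (SE, adjusted p = 0.13, edgeR).

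*mcm3* had 75, 34 and 33 reads in old ventricles and 20, 21 and 5 in young ones (log2 fold change 1.52 ± 0.58, SE, adjusted p = 0.25, edgeR). *mcm2* had 90, 34 and 26 against 20, 27 and 29 reads, and its log2 fold change of 0.88 ± 0.51 (SE, adjusted p = 0.47, edgeR) rested on old replicate 1, since it was 0.19 at the lowest when 1 library was left out. *mcm5* and *mcm7* had log2 fold changes of -0.13 ± 0.40 and -0.23 ± 0.35 (SE), with 124, 110 and 143 against 73, 91 and 217 reads for *mcm5* and 137, 93 and 238 against 213, 102 and 178 for *mcm7*. Neither direction was stable, since the value became 0.53 for *mcm5* without young replicate 5 and 0.01 for *mcm7* without young replicate 1. The subunits of this helicase thus ranged from -0.23 to 1.52 on the log2 scale, and 3 of the 5 overlapped between the groups.

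Deoxynucleotide supply was represented by *tyms* and *rrm1*. *tyms*, the gene of thymidylate synthase, had 40, 44 and 13 reads in old and 8, 7 and 5 in young ventricles, with a log2 fold change of 2.21 ± 0.62 (SE, adjusted p = 0.13, edgeR). Old replicate 5 was close to the young libraries (0.537 CPM against at most 0.401), and without it *tyms* passed the adjusted threshold. *rrm1*, the large subunit of ribonucleotide reductase, had 234, 181 and 189 against 88, 213 and 87 reads, with young replicate 2 inside the old range (log2 fold change 0.55 ± 0.35, SE, adjusted p = 0.51, edgeR).

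*pcna*, the sliding clamp of the replication fork, made up 38.2 to 50.1% of the summed CPM of the S phase members. It had 767, 442 and 499 reads in old and 360, 539 and 360 in young ventricles, or 26.3 ± 7.44 against 20.8 ± 4.53 CPM (SD, n = 3 each). The groups overlapped, and the log2 fold change was 0.34 ± 0.25 (SE, adjusted p = 0.57, edgeR).

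The remaining S phase genes overlapped between the groups. *gins2*, a subunit of the GINS complex that activates the helicase, had 12, 8 and 1 against 1, 7 and 1 reads (log2 fold change 1.15 ± 1.03, SE, adjusted p = 0.62, edgeR). *ccne2*, a cyclin of S phase entry, had 8, 14 and 6 against 5, 4 and 5 reads (log2 fold change 0.93 ± 0.66, SE, adjusted p = 0.55, edgeR). *cdc45*, *ccne1*, *cdc6* and the loading factor gene *cdt1* had log2 fold changes of 0.88, 0.51, 0.43 and -0.41, each smaller than its standard error.

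Of the symbols with 2 genes each, *rrm2* encodes the small subunit of ribonucleotide reductase and *mcm6* a helicase subunit. The genes of *rrm2* had 23, 0 and 31 reads in old and 0, 17 and 0 in young ventricles (ENSDARG00000020711), and 30, 56 and 34 against 23, 15 and 36 (ENSDARG00000078069). For *mcm6*, 1 gene had 0 to 7 reads in any library (ENSDARG00000033231), and the other had 92, 50 and 49 against 25, 47 and 8 (ENSDARG00000057683). The first *rrm2* gene was at 0 in 3 of the 6 libraries, in both age groups, and these 4 genes entered no count.

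Summed over the 40 mitosis genes, the level was 63.9, 67.3 and 45.6 CPM in the old libraries and 23.7, 24.7 and 17.4 in the young ones, or 59.0 ± 11.7 against 21.9 ± 3.94 (SD, n = 3 each), a 2.69-fold difference. Without *kif23*, the most counted member of the list, the fold was 2.92. The 14 S phase genes summed to 75.0, 56.7 and 52.4 CPM in old and 43.2, 51.9 and 48.2 in young ventricles (61.3 ± 12 against 47.8 ± 4.41, SD, n = 3 each), a 1.28-fold difference. Old replicate 5 exceeded young replicate 2 by less than 1 CPM in this sum. In bulk RNA, more cycling cells and more of these transcripts per cycling cell cannot be told apart.

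Old replicate 3 was the highest of the 6 libraries for 20 mitosis genes and old replicate 1 for 12, while young replicate 5 was the lowest for 19. At most 3 reads were counted for 15, 12 and 22 of the 40 mitosis genes in young replicates 1, 2 and 5, and for 1, 0 and 1 in the old replicates. Among the S phase genes old replicate 1 was the highest library for 7 of 14. The mitosis sum divided by the S phase sum was 0.852, 1.19 and 0.871 in the old libraries and 0.549, 0.475 and 0.362 in the young ones, a ratio that is read only between libraries because it was not scaled by transcript length.

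**Figure D3:**
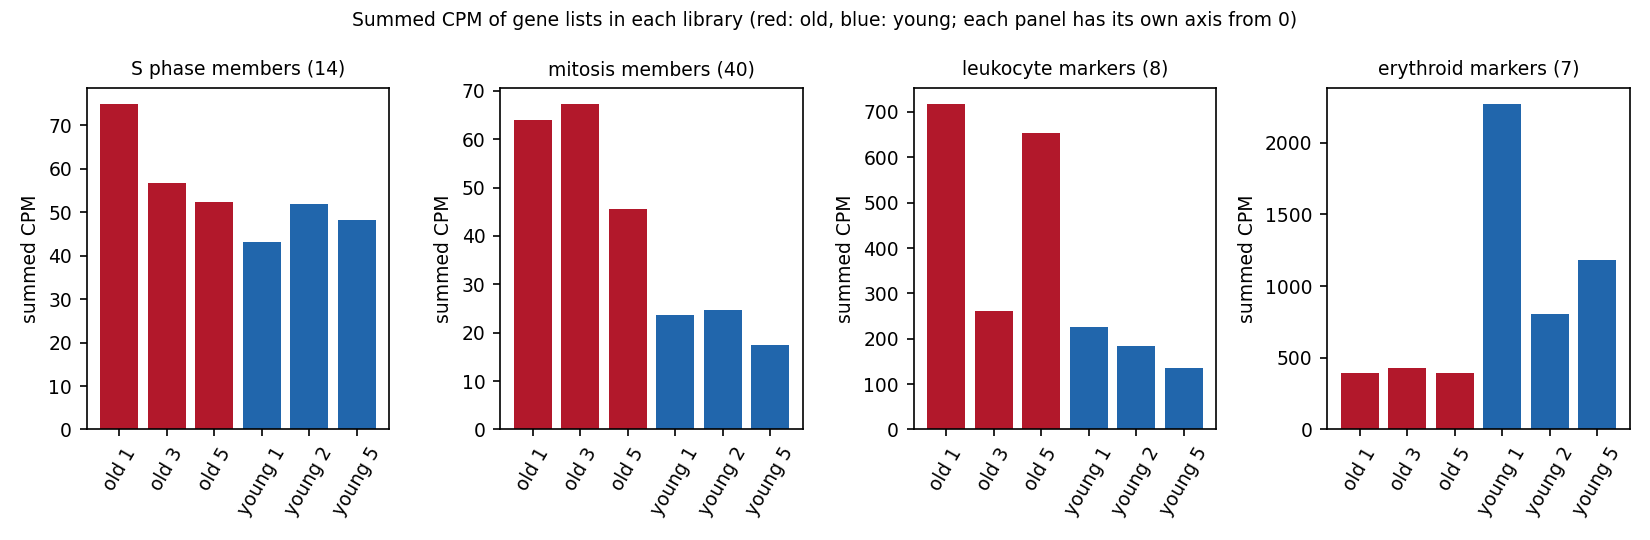
Summed CPM (vertical axis, starting at 0 in each panel) of the S phase members, the mitosis members, the leukocyte markers and the erythroid markers in each of the 3 old (red) and 3 young (blue) libraries. The mitosis sum is 45.6 to 67.3 CPM in the old libraries and 17.4 to 24.7 in the young ones, and the leukocyte sum of old replicate 3 (262 CPM) lies near that of young replicate 1 (227 CPM).

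Markers of blood cells also differed between the ages. All 8 leukocyte markers found of 12 listed were higher in old ventricles with an unadjusted p under 0.05 (8.64% of all genes), and none was at 0. The adjusted threshold was passed by 1 of the 8, *lcp1* (0.519% of all genes in this direction). Of these, *laptm5*, *csf1ra* and *lyz* overlapped between the groups, and *lyz*, with 713 reads in old replicate 5, had a log2 fold change of 3.6 that became 0.01 without that library. The sum of the 8 markers was 262 to 718 CPM in old and 136 to 227 in young ventricles. Old replicate 3 had the lowest leukocyte sum of the old libraries and the highest mitosis sum. Lymphocyte markers (10 of 10 found) summed to 1.12 to 5.33 CPM in old and 0.511 to 1.45 in young ventricles, and *cd79b* and *pax5* were at 0 in at least 4 of the 6 libraries. Fitted log2 values of these 10 were positive for 9, with 1.66 as the median (1.47 with bounds). An unadjusted p under 0.05 was reached by 3 (30.0%, against 8.64% of all genes), each with more in old fish. By edgeR 0 passed the adjusted threshold, and DESeq2 called 1, *zap70*. Old and young libraries overlapped for 8, and only the young group lay at the floor for 5.

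All 7 erythroid markers found of 10 listed were lower in old ventricles, with sums of 391 to 431 against 805 to 2270 CPM. The adjusted threshold was passed by 2 of them with edgeR, *hbaa1* and *gata1a* (0.338% of all genes in this direction). DESeq2 called all 7 as lower, while it called 1229 of all 24835 genes in either direction. All 7 also had an unadjusted p under 0.05 (6.5% of all genes with a lower level). Every old library lay below every young one for all 7 (9.66% of all genes). Germ cell markers, which would show gonad tissue carried along, summed to 2.54 to 3.75 CPM in old and 1.40 to 2.45 in young ventricles, and 0 of 10 passed the adjusted threshold by edgeR or reached an unadjusted p under 0.05. Of the 10, 6 were fitted lower and 4 higher in old ventricles, and 5 were at the floor in both groups. *ddx4* was at 0 in 5 of the 6 libraries. *buc* was higher in old ventricles without overlap, with 39, 33 and 61 against 13, 30 and 23 reads. The groups were apart in the other direction for *zp3b* (4, 3 and 2 against 8, 5 and 5 reads). *zar1* had 1, 0 and 0 against 2, 1 and 2 reads. Old replicate 1 and young replicate 2 both held 1 read and differed only through scaling, and both groups were at the floor. *sycp1* overlapped and had 5, 27 and 4 against 1, 2 and 5 reads, with its highest value in old replicate 3. None of the cardiomyocyte (5 of 9 found), endothelial (5 of 7), epicardial (6 of 7) or thrombocyte (2 of 4) markers passed the adjusted threshold. An unadjusted p under 0.05 was reached by 1 cardiomyocyte marker with a lower level in old ventricles (6.5% of all genes). It was also reached by 1 epicardial marker with a higher level (8.64% of all genes). The part of any of these cell types in the mitosis values was not tested, and no member marks the cell type in which it was transcribed.

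**Figure D4:**
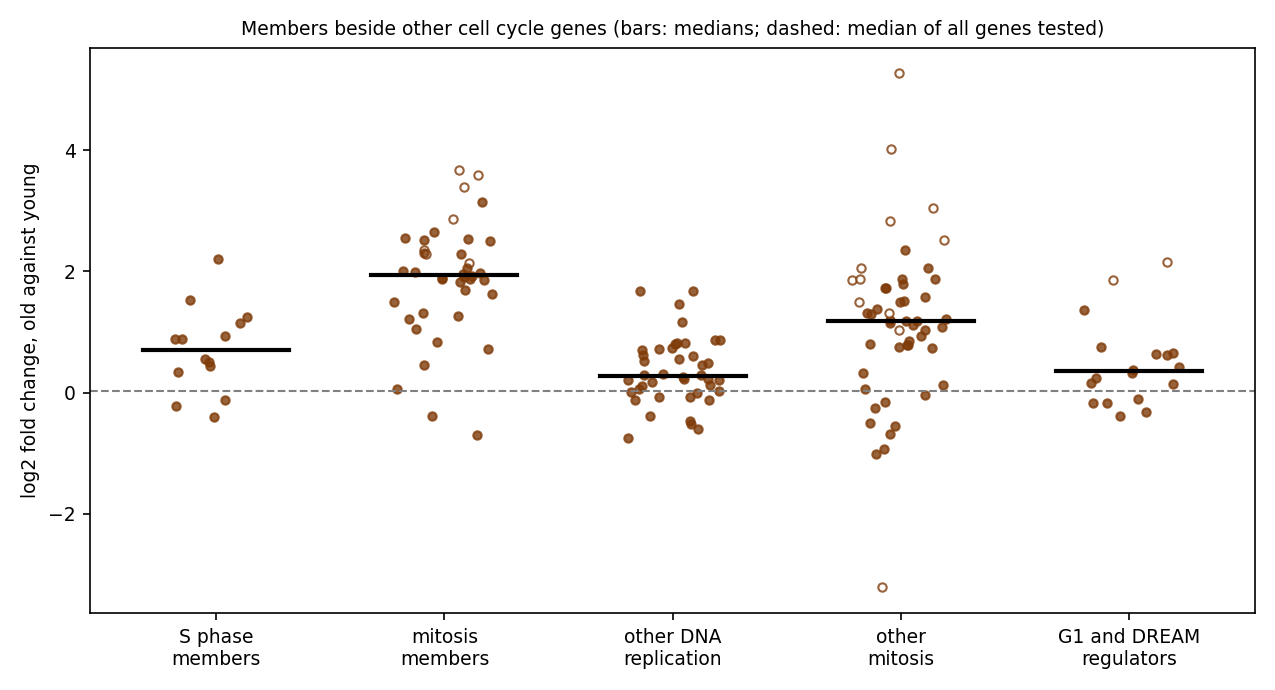
Log2 fold changes (old against young ventricles, vertical axis) of the S phase and mitosis members beside 3 wider lists of cell cycle genes, with each gene as a point (open where a group had at most 3 reads in every library), bars for list medians and a dashed line for the median of all genes (0.02). The medians are 0.71 and 1.94 for the members and 0.27, 1.18 and 0.35 for the other DNA replication genes, the other mitosis genes and the regulators of S phase entry.

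Wider lists of the same pathways were counted in the same way. Unlike the mitosis members, the other mitosis genes had similar sums of CPM in both groups (150 ± 17.2 in old against 152 ± 15.1 in young ventricles, SD, n = 3 each). Such a sum follows the most counted genes, and 42 of the 51 genes were fitted higher in old ventricles. The most counted gene of that list, *ckap5*, made up 35.6 and 50.5 CPM of these sums. The summed fold of old over young was 1.02 for the other DNA replication genes and 1.03 for the regulators of S phase entry. Of 42 other DNA replication genes tested (46 listed), 0 passed the adjusted threshold by edgeR and 1 by DESeq2 (*chaf1a*). Their median log2 fold change was 0.27, and an unadjusted p under 0.05 was reached by 5 (11.9%, against 8.64% of all genes) with a higher and 1 (against 6.5% of all genes) with a lower level in old ventricles. Without overlap between the ages, 12 of the 42 were higher in old fish (28.6%, against 10.4% of all genes). In the same sense 1 was lower (against 9.66% of all genes). *chaf1a*, which encodes the large subunit of the histone chaperone CAF-1, had 95, 130 and 70 reads against 23, 49 and 17 (log2 fold change 1.68 ± 0.47, SE).

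*gins4*, another GINS subunit, and *uhrf1*, which brings DNA methylation to the new strand, had log2 fold changes of 1.47 ± 0.54 and 0.81 ± 0.33 (SE). *timeless*, a fork protection gene, was the lower one, with 539, 314 and 503 reads in old and 583, 575 and 572 in young ventricles (log2 fold change -0.47 ± 0.19, SE). Adjusted p lay between 0.14 and 0.29 for these 4 genes (edgeR).

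Of 51 other mitosis genes tested (58 listed), *ncapg2* alone passed the adjusted threshold by edgeR, while DESeq2 called *ncapg2* and *aspm* as higher and *ckap5* as lower in old ventricles. Their median log2 fold change was 1.18 (1.1 with bounds). An unadjusted p under 0.05 was reached by 20 (39.2%, against 8.64% of all genes) with a higher level in old ventricles. It was reached by 3 of the 51 with a lower level, against 6.5% of all genes. Without overlap between the ages, 27 of the 51 were higher in old fish (52.9%, against 10.4% of all genes). In the same sense 3 were lower (against 9.66% of all genes). For 11 of the 51 only the young group lay at the floor. *aspm*, a spindle pole gene, had 13, 17 and 27 against 3, 1 and 2 reads, higher in old ventricles with a nominal bound of 5.83-fold (adjusted p = 0.072, edgeR).

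The 3 lower ones were *ckap5* and *tacc3*, whose products act together on spindle microtubules, and *ccnf*, a cyclin of the F-box family. *ckap5* had 806, 675 and 826 reads in old and 1001, 1098 and 948 in young ventricles, with no overlap and a log2 fold change of -0.51 ± 0.16 (SE, adjusted p = 0.17 by edgeR and 0.029 by DESeq2). *aspm*, *ccnf*, *tacc3* and *ckap5*, and the condensin II genes beside *ncapg2*, were chosen for mention after their values had been seen.

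The regulators of S phase entry and of the DREAM complex, which represses cell cycle genes in resting cells, had a median log2 fold change of 0.35. Of 18 tested (22 listed), 0 passed the adjusted threshold by edgeR or by DESeq2, and 2 (11.1%, against 8.64% of all genes) reached an unadjusted p under 0.05 with a higher level in old ventricles. These were *e2f8*, a repressive E2F factor, with 20, 21 and 17 against 6, 9 and 6 reads (log2 fold change 1.37 ± 0.50, SE), and *lin52*, a subunit of the core shared by DREAM and the B-Myb complex (log2 fold change 0.63 ± 0.26, SE). *e2f1*, an activating E2F factor, had 5, 8 and 2 against 2, 1 and 0 reads, and *cdk2*, the kinase partner of the E-type cyclins, had 70, 35 and 30 against 25, 24 and 26, and both overlapped between the groups. Without overlap between the ages, 2 of the 18 were higher in old fish (11.1%, against 10.4% of all genes). In the same sense 1 was lower (against 9.66% of all genes).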

How the data were processed

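Total RNA of zebrafish ventricles (3 old and 3 young) was extracted with trizol, and the authors chose samples by RNA integrity. Poly(A) libraries were stranded. Per the labels and the study's methods, the authors converted reads with bcl2fastq 2.20.0.422, aligned them to GRCz11 with STAR 2.5.4b and ran featureCounts 1.6.3 in stranded mode on reads with a single position, per Ensembl gene. The deposited values are these raw counts.

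Here, genes with 0 reads in all 6 libraries were dropped, and the remaining 24835 were fitted with edgeR 4.0.16 (TMM, quasi-likelihood, age group as the only factor) in R 4.3.3, and p-values were adjusted by Benjamini-Hochberg over all genes, with a threshold of 0.05. The standard error is the log2 fold change divided by the root of F. DESeq2 1.42.0 was an alternative. The fit was tested on simulated data, with large changes planted only in genes better counted than most mitosis members. That test does not cover scarcer genes or smaller changes. Tables and figures were made with Python 3.11.15, pandas 2.3.3 and matplotlib 3.10.9.

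Symbols came from a name table covering 29201 genes, matched without regard to case. The design text speaks of individuals, so a library was taken as 1 fish. Members and lists were chosen with earlier results of these data known. Values per library were given for members past the threshold, the 8 S phase and 10 mitosis genes with the smallest p, *mki67*, *top2a*, *cdk1*, *ccnb1*, *aurkb*, *pcna*, *mcm2* and *rrm2*, and for other members where a role was described. Of the wider lists, genes past the threshold or the 4 with the smallest p were named. Replicate numbers 1 and 5 occur in both groups, but deviations of same-numbered libraries correlated with r of -0.05 and 0.03 across 14783 genes, so they were not treated as pairs.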

Additional observations from a re-analysis of the deposited data

How the results depend on the processing

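The medians of both lists kept their direction in all settings: 0.47 to 0.79 for the S phase and 1.74 to 2.05 for the mitosis genes when 1 library was left out. They moved by less than a pooled SD within the groups of 0.78 for S phase and 0.35 for mitosis (log2 scale). This SD was taken over the median log2 CPM of the list in each library. It therefore also depends on which gene lies in the middle of the list, and is no direct measure of the spread of a gene between libraries. For the S phase genes this SD was larger than the median log2 fold change of 0.71, so staying within it says little. Scaling by library size alone shifted the median of all genes by 0.18 and gave medians of 0.89 and 2.10. Counts past the adjusted threshold moved more. Against 3 mitosis and 0 S phase genes, DESeq2 called 14 and 2, a filter of 10 summed reads left 1 mitosis gene, the replicate block left 0, and leaving out 1 library gave 0 to 2 mitosis genes (1 without old replicate 3, 0 without young replicate 1, 2 or 5) and 0 to 1 S phase genes (*tyms*, without old replicate 5). The 30 mitosis genes with an unadjusted p under 0.05 became 18 with the replicate block and 24 to 29 with 1 library left out, and the 3 S phase genes became 2 to 4. The block's replicate numbers are shared only by name, and young replicate 2 and old replicate 3 have no partner. With the block, the age effect therefore rested on replicates 1 and 5 of each group alone. Its lower counts thus also reflect the loss of libraries. *top2a* passed in 9 of the 13 other settings (adjusted p 5.1e-07 to 0.11), *mki67* in 6 (3.7e-05 to 0.24) and *smc2* in 4 (0.00051 to 0.23), all by edgeR or DESeq2. Over all genes, calls went from 213 to 1229 with DESeq2, 111 with filterByExpr or bias-adjusted deviances, 65 with 10 summed reads, 126 with the block, and 412, 57, 19 and 96 without old replicate 1 or young replicate 1, 2 or 5. A setting without the members matched through another symbol was chosen after seeing the data and left 26 mitosis genes with an unadjusted p under 0.05. For the members selected by the naming rule above, 228 results kept their side of the threshold, 20 became weaker, 10 stronger and 0 reversed. Only *top2a*, *mki67* and *smc2* had passed in the main fit, so most kept results were genes that stayed short of the threshold. All 20 weaker results were lost calls of these 3. Of the members outside the naming rule, *mcm5*, *mcm7*, *cdt1*, *cdc20* and *fbxo5* were among those that changed direction with 1 library left out. The cause was not tested. The planned shares of promoters with a motif were not run, since no promoter sequences were used here. Depth limits the genes with few reads: at most 3 reads were counted for 22 of 40 mitosis genes in young replicate 5.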
